A study of Mus with 7 samples.

Results

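The cells described here were 981 Acod1-positive macrophages from the library taken 1 h after lipopolysaccharide (LPS), out of 3073 cells of that library that passed the limits on depth and quality. Of the series' 7 libraries, with 31151 barcodes in all, 11640 cells passed the same limits. A barcode was kept with more than 20000 unique molecular identifiers (UMIs, each marking 1 captured RNA molecule), at least 2000 genes and under 20% mitochondrial UMIs. Each kept cell was thinned at random to 20000 UMIs, so that 1 UMI in a cell equals 50 CPM (counts scaled to the same total in every cell). A cell with at least 1 Acod1 UMI after thinning was called positive, and the other 2092 cells were called negative. The classes were chosen by measured values within 1 library, so every difference between them is a description and carries no test. Their intervals are exact binomial 95% intervals on summed UMIs, which cover counting error only. They are too narrow where a few cells hold much of a gene's RNA.

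The cells were wild-type C57BL/6J fetal liver-derived macrophages (FLMs), a self-renewing primary culture that is kept in medium with 30 ng/mL GM-CSF. In the vehicle (Veh) arm, cells were held for 24 h in 0.25% fetal bovine serum with 8.3 µM bovine serum albumin, and then received 20 ng/mL LPS for 0, 1 or 4 h (named Veh.LPS.0, then Veh.LPS.1, then Veh.LPS.4). In the DHA arm the same albumin carried 25 µM docosahexaenoic acid, giving DHA.LPS.0, DHA.LPS.1 and DHA.LPS.4. Con cells stayed in 10% serum and received neither albumin nor LPS. Each condition had a single library, so no difference between libraries can be set against replicates.

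Acod1 (ENSMUSG00000022126), also known as Irg1, encodes the mitochondrial enzyme that decarboxylates cis-aconitate, an intermediate of the citrate cycle, to itaconate. Macrophages induce it strongly when Toll-like receptors sense bacterial products. Itaconate slows succinate dehydrogenase and modifies KEAP1, which releases the antioxidant factor NRF2, and LPS signalling through TLR4 drives both NF-kB target genes and, by a later endosomal branch, type I interferon. In the RefSeq gene table of the GRCm38.p6 assembly, Acod1 lies on chromosome 14 from 103047012 to 103056573. A long non-coding RNA gene, Gm41235, overlaps 1 end of it in that table and is not among the genes of the files.

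Acod1 RNA was found in a minority of the cells at 1 h and in nearly all of them at 4 h. A positive call was made for 20 of 2908 Con cells (0.688%, interval 0.421 to 1.06), for 51 of 2481 Veh.LPS.0 cells (2.06%, 1.53 to 2.69) and in DHA.LPS.0 for 14 of 698 cells (2.01%, 1.10 to 3.34). In Veh.LPS.1 the share was 31.9% (30.3 to 33.6), and in DHA.LPS.1 it was 23.5% (20.6 to 26.6, 187 of 795 cells). The limits kept 3073 of 5705 barcodes in Veh.LPS.1 and 795 of 4395 in DHA.LPS.1, so these shares describe unlike parts of the 2 libraries. By 4 h, 961 of 993 Veh cells (96.8%, 95.5 to 97.8) and 676 of 692 DHA cells (97.7%, 96.3 to 98.7) were positive. The mean level over all thinned cells was 1.24 CPM in Con, 1.63 in Veh.LPS.0, 3.44 in DHA.LPS.0, 55.7 in Veh.LPS.1, 37.5 in DHA.LPS.1, 878 in Veh.LPS.4 and 841 in DHA.LPS.4.

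**Figure D1:**
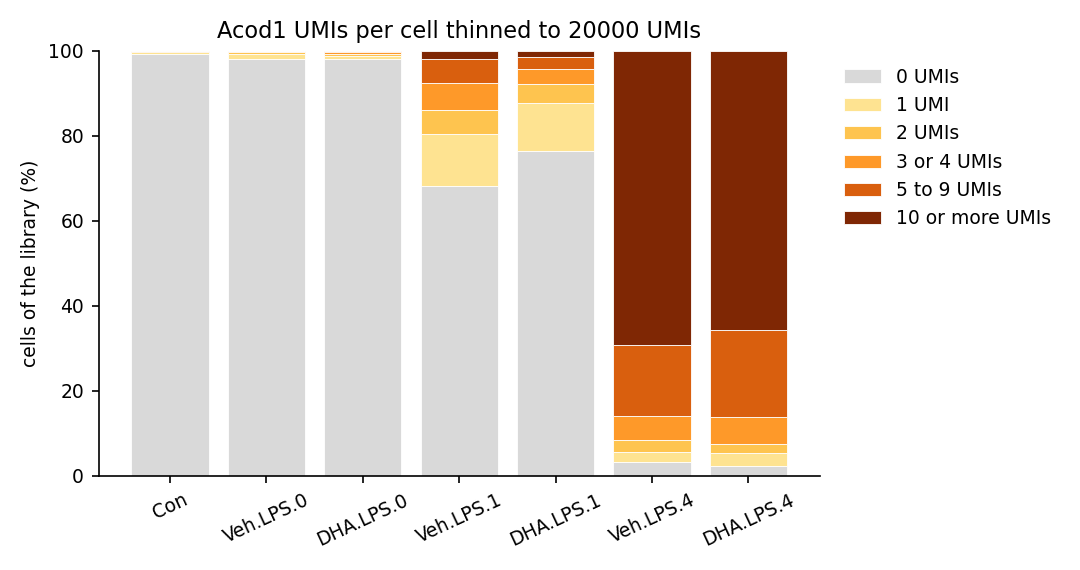
Stacked bars give the percent of cells of each library (vertical axis) that held 0, 1, 2, 3 or 4, 5 to 9, or 10 or more Acod1 UMIs after thinning to 20000 UMIs. In Veh.LPS.1 the grey part with 0 UMIs covers 68.1% of the cells and the darkest part, 10 or more UMIs, covers 1.92%, against 69.3% in Veh.LPS.4.

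Positive cells differed widely in how much Acod1 they held. Of the 981, 376 cells (38.3%) had exactly 1 UMI, 178 had 2, 192 had 3 or 4, 176 had 5 to 9 and 59 had 10 or more, with 31 UMIs in the highest cell. The 59 cells were 6.01% of the positive class and held 26.3% of its Acod1 UMIs. The variance of Acod1 UMIs over all 3073 cells was 6.65 times their mean, where independent sampling of equal cells would give about 1. In Veh.LPS.4, 688 of the 993 cells (69.3%) had 10 or more UMIs. A cell with 1 UMI and a cell with none are neighbours in sampling, and with all UMIs in place of thinned ones the positive share of Veh.LPS.1 was 36.4%. No cell type known to lack Acod1 was found in the culture, so there was no measure of the UMIs that free RNA adds to a cell, and their part in the cells with 1 UMI was not tested.

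Positive and negative cells were close in the usual measures of library quality. Median depth before thinning was 28940 UMIs in positive and 29516.5 UMIs in negative cells, the median mitochondrial share was 6.91% and 6.92%, and the median ribosomal protein share was 20.1% and 20.2%. Thinned cells held a median of 4244 genes in the positive and 4289.5 genes in the negative class. Across 5 equal groups of cells ordered by depth the positive share ranged from 28.5% to 34.1%, and across 5 ordered by mitochondrial share from 30.1% to 34.0%. Barcodes shared with the other libraries numbered 0 to 4 per library. All 3073 cells held UMIs of at least 3 of the 9 macrophage markers on the list. No cell held UMIs of at least 3 neutrophil, mast cell and basophil, dendritic, erythroid, hepatocyte, stromal and endothelial, or lymphoid markers. The summed level of each of these 7 lists was at most 6.93 CPM in positive cells and 6.38 CPM in negative cells, and 3 to 8 markers of each were at 0 UMIs in both classes.

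The contrast was narrow. 8437 genes were detected in 10% or more of the cells and were tested. Of these, 10 were more than 1.5-fold higher in positive cells (0.119% of genes tested) and 2 were more than 1.5-fold lower (0.0237%). The median log2 ratio of all genes tested was -0.03, with an interquartile range from -0.10 to 0.03, and 64.7% of them had a ratio below 1. At a lower limit, a ratio more than 25% above 1 or more than 20% below it, 92 genes (1.09%) were higher and 146 (1.73%) were lower. Named here of the 10 higher genes are 9, namely Cxcl10, Oasl1, Ccrl2, Clec4n, Slfn5, Ccl7, Csf3, Lyz1 and Ptgs2. Slpi and Irf1 came just short of the limit, at ratios of 1.47 and 1.44. Cxcl10, Oasl1, Ccrl2 and Clec4n stayed past 1.5-fold in each of the 12 alternatives run, and the other 5 named did so in 7 to 11 of them. With another random thinning Slfn5, Ccl7 and Ptgs2 came under it, and without the 59 cells of highest Acod1 so did the same 3 genes.

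Cxcl10 (ENSMUSG00000034855), a chemokine that interferon and NF-kB induce and that attracts T cells through CXCR3, had the highest ratio. It had 57.1 CPM in positive and 16.2 CPM in negative cells, a ratio of 3.54 (3.21 to 3.90), and at least 1 UMI in 20.9% and 11.5% of the cells. Its level over all cells was 6.13 CPM in Veh.LPS.0 and 60.9 CPM in Veh.LPS.4, so positive cells at 1 h were near the 4 h mean. Cxcl10 RNA was concentrated in few cells. Its 10 highest cells, 8 of them Acod1-positive, held 23.3% of its UMIs, and without them the ratio was 2.98. Of 87 cells with 5 or more Cxcl10 UMIs, 56 were Acod1-positive.

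Oasl1 (ENSMUSG00000041827), an interferon-induced protein that restrains translation of Irf7, was next. Its level was 28.2 CPM in positive and 8.53 CPM in negative cells, a ratio of 3.30 (2.89 to 3.78), with 7.32 CPM in Veh.LPS.0 and 155 CPM in Veh.LPS.4. Negative cells were thus close to the level before LPS. Oasl1 was found in 16.6% of positive, 8.27% of negative and 10.9% of all cells, so it passed the 10% filter through the class where it is high. Without the 59 cells that held 10 or more Acod1 UMIs the ratio of Oasl1 was 2.19 and that of Cxcl10 was 2.73.

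Ccrl2 (ENSMUSG00000043953), an atypical receptor that binds the chemoattractant chemerin, had 20.8 CPM in positive and 9.03 CPM in negative cells, a ratio of 2.31 (2.001 to 2.66). It had 1.53 CPM in Veh.LPS.0 and 25.4 CPM in Veh.LPS.4. Ccl7 (ENSMUSG00000035373), a monocyte-attracting chemokine, had 177 CPM in positive and 104 CPM in negative cells (ratio 1.71, 1.63 to 1.79), on the way from 49.3 CPM at 0 h to 1030 CPM at 4 h. For both genes the order of the levels was 0 h, negative cells, positive cells and 4 h.

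Csf3 (ENSMUSG00000038067), which encodes the granulocyte growth factor G-CSF, had 130 CPM in positive and 78.6 CPM in negative cells, a ratio of 1.65 (1.57 to 1.74). It was found in 50.6% of positive and 37.5% of negative cells, against 1.35 CPM in Veh.LPS.0 and 1574 CPM in Veh.LPS.4. Ptgs2 (ENSMUSG00000032487), the inducible cyclooxygenase that starts prostaglandin synthesis, had 46.4 and 30.3 CPM (ratio 1.53, 1.41 to 1.67), with 3.41 CPM at 0 h and 454 CPM at 4 h. Both thus had the same order of levels as Ccl7.

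Clec4n and Lyz1 had similar levels in the 0 h and 4 h libraries. Clec4n (ENSMUSG00000023349), which encodes the fungal receptor Dectin-2, had 34.7 CPM in positive and 18.6 CPM in negative cells, a ratio of 1.87 (1.68 to 2.07), around levels of 23.1 CPM in Veh.LPS.0 and 22.0 CPM in Veh.LPS.4. Lyz1 (ENSMUSG00000069515), a lysozyme, had 30.2 and 18.7 CPM (ratio 1.61, 1.45 to 1.80), around 23.0 CPM at 0 h and 24.7 CPM at 4 h. These genes differed between cells of 1 library more than between the 0 h and 4 h libraries. Its near-identical copy Lyz2 can share reads with Lyz1, so the split between them is uncertain. Slfn5 (ENSMUSG00000054404), a member of the Schlafen family, had 10.7 and 6.14 CPM (ratio 1.74, 1.45 to 2.099). Its level in negative cells was below the 11.04 CPM of Veh.LPS.0, and it had 65.1 CPM in Veh.LPS.4. Like Oasl1 it passed the filter through the positive class, with a UMI in 15.1% of positive and 9.80% of negative cells. The 10 highest cells of each gene held 22.6% of the Lyz1 and 14.8% of the Slfn5 UMIs. Without them the ratios were 1.45 and 1.49, both under 1.5-fold. With Veh.LPS.4 set against Veh.LPS.0, libraries that the classes were not taken from, 8 of the 10 genes were more than 1.5-fold higher at 4 h. Of 8436 genes, 9.15% were higher and 40.3% were lower. Oasl1 and Slfn5 are among the 8, and the positive class let both into the 10, so this count is a description only.

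**Figure D2:**
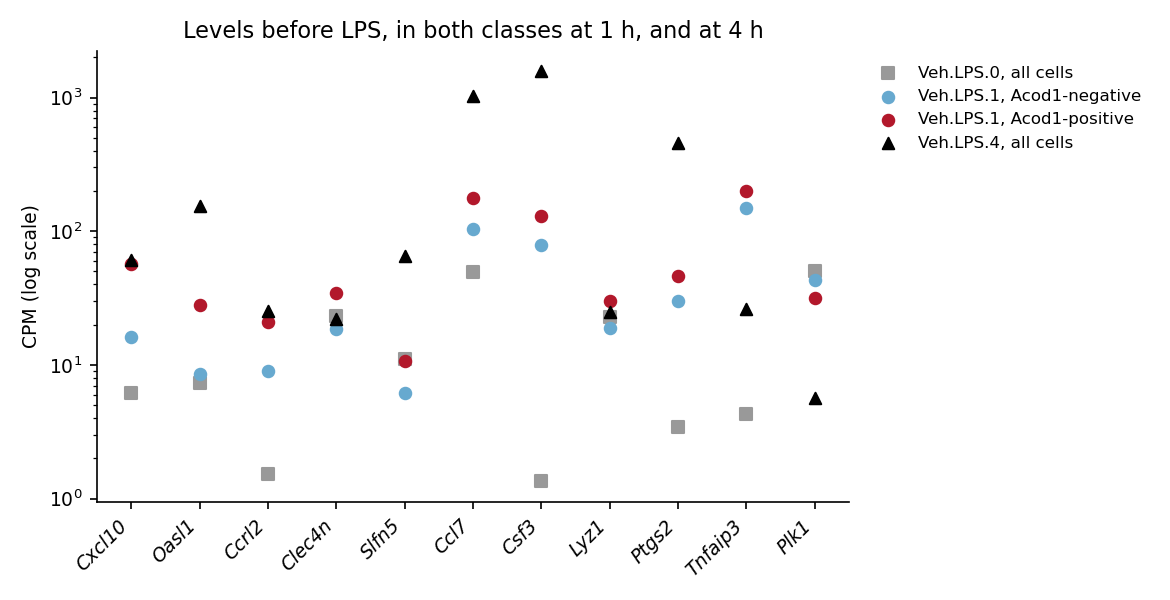
Points give the level in CPM (log axis) of 9 genes more than 1.5-fold higher in positive cells, and of Tnfaip3 and Plk1, in all cells of Veh.LPS.0 and Veh.LPS.4 and in both classes of Veh.LPS.1. Ccl7, Csf3 and Ptgs2 step up from 0 h through negative and positive cells to 4 h, while Tnfaip3 is above its 4 h level in both classes.

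The lower genes were sparse. Oip5 (ENSMUSG00000072980), which helps to load the centromeric histone CENP-A, had 6.22 CPM in positive and 9.68 CPM in negative cells, a ratio of 0.642 (0.520 to 0.788). Sh2b1, a signalling adaptor, had 5.30 and 8.17 CPM (ratio 0.648, 0.516 to 0.810). The next were Lrrc20 at 0.678, Poc1a, a centriole protein, at 0.687, the kinase gene Mapk7 at 0.693, Fam118a at 0.693, the histone gene Hist2h2bb at 0.695 and Tdp1, a DNA repair enzyme, at 0.696. These 8 genes rested on 102 to 178 UMIs in positive cells, and neither Oip5 nor Sh2b1 was past 1.5-fold with another random thinning, at log2 ratios of -0.39 and -0.52. Fam118a passed the filter through the negative class, with a UMI in 9.89% of positive and 14.6% of negative cells.

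The chemokines had the highest median among the lists with at least 8 genes tested. Of 14, 8 passed the filter, and those 8 had a ratio above 1, where 64.7% of all genes tested were below 1. Past 1.5-fold were 2 of the 8 (0.119% of all genes), and past the 25% limit 5 (1.09%). The 8 log2 ratios had a median of 0.35. The abundant monocyte chemokine Ccl2 had 3076 CPM in positive and 2434 CPM in negative cells (ratio 1.26), and Ccl4 had 5997 and 4689 CPM (1.28). Ccl3 had a ratio of 1.15 and the neutrophil chemokine Cxcl2, found in every cell of both classes, had 8302 and 7256 CPM (1.14, interval 1.14 to 1.15). The abundant, universal chemokines thus differed less than Cxcl10 and Ccl7, which were absent from most cells.

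The TNF and IL-1 genes and the later inflammatory genes had smaller medians above 0. Of the TNF and IL-1 list, 10 of 14 genes passed the filter, with a median of 0.16 on the log2 scale. Of these, 8 had a ratio above 1 and 4 were past the 25% limit. Across all genes tested, 64.7% were below 1 and 1.09% were past that limit. Tnf itself, the early macrophage cytokine, had 4186 CPM in positive and 3566 CPM in negative cells (ratio 1.17). The inflammasome sensor Nlrp3 had 700 and 554 CPM (1.26), and the IL-1 receptor antagonist Il1rn had 150 and 115 CPM (1.31). Tnfaip2 was the highest at 1.32 and the receptor gene Tnfrsf1a the lowest at 0.927. Among later inflammatory genes, 9 of 25 passed the filter, and 3 were past 1.5-fold, as 0.119% of all genes tested were. Csf3 and Ptgs2 were among the 3. All 9 were above 1, with a median of 0.25. The lowest was the costimulatory ligand Cd80 at 1.06. The C-type lectin Clec4e, which senses mycobacterial glycolipid, had 713 CPM in positive and 569 CPM in negative cells.

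Across all genes tested, 64.7% had a ratio below 1 and 1.09% were more than 25% higher. Of the NF-kB subunits and feedback genes, 16 of 19 tested had a ratio above 1, with a median log2 ratio of 0.15. Past the 25% limit was 1 gene. That was Tnfaip3, the ubiquitin-editing brake A20, with 200 CPM in positive and 149 CPM in negative cells (ratio 1.34, 1.29 to 1.40). Its level was 4.31 CPM at 0 h and 26.1 CPM at 4 h. The inhibitor Nfkbia had 1631 and 1424 CPM (1.15), the IkB-like co-regulator Nfkbiz had 583.5 and 470 CPM (1.24), and the lowest was Birc2 at 0.919. Immediate-early transcription factors gave 22 of 24 above 1 and a median of 0.12, with Irf1 at 1.44, Nr4a1 at 1.40, Fos at 1.28 and Egr2 at 1.24. Egr1, with 654 and 642 CPM, had a ratio of 1.02, and the zinc finger factor Klf4, which was higher before LPS, had the lowest at 0.929. Of the phosphatase and mRNA decay genes that damp the response, 14 of 16 were above 1, with a median of 0.17. The MAP kinase phosphatase Dusp1 had a ratio of 1.36, the cytokine receptor brake Socs3 had 1.35, and Trib3 was the lowest at 0.949.

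The sensing machinery itself showed little difference. For the TLR4 complex and its adaptors, 12 of 20 genes were above 1, where 64.7% of all genes tested were below 1. The median log2 ratio of the list was 0.02, against -0.03 over all genes tested. Tlr4 had a ratio of 0.903 and its co-receptor Cd14 a ratio of 1.12, with 1118 and 995 CPM. The highest was the kinase gene Ikbke at 1.32 (1.20 to 1.45), and the lowest was the kinase gene Map3k8 at 0.853 (0.734 to 0.989). In DHA.LPS.1 Ikbke had a ratio of 0.834 (0.654 to 1.05) and Map3k8 of 1.02 (0.724 to 1.40).

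**Figure D3:**
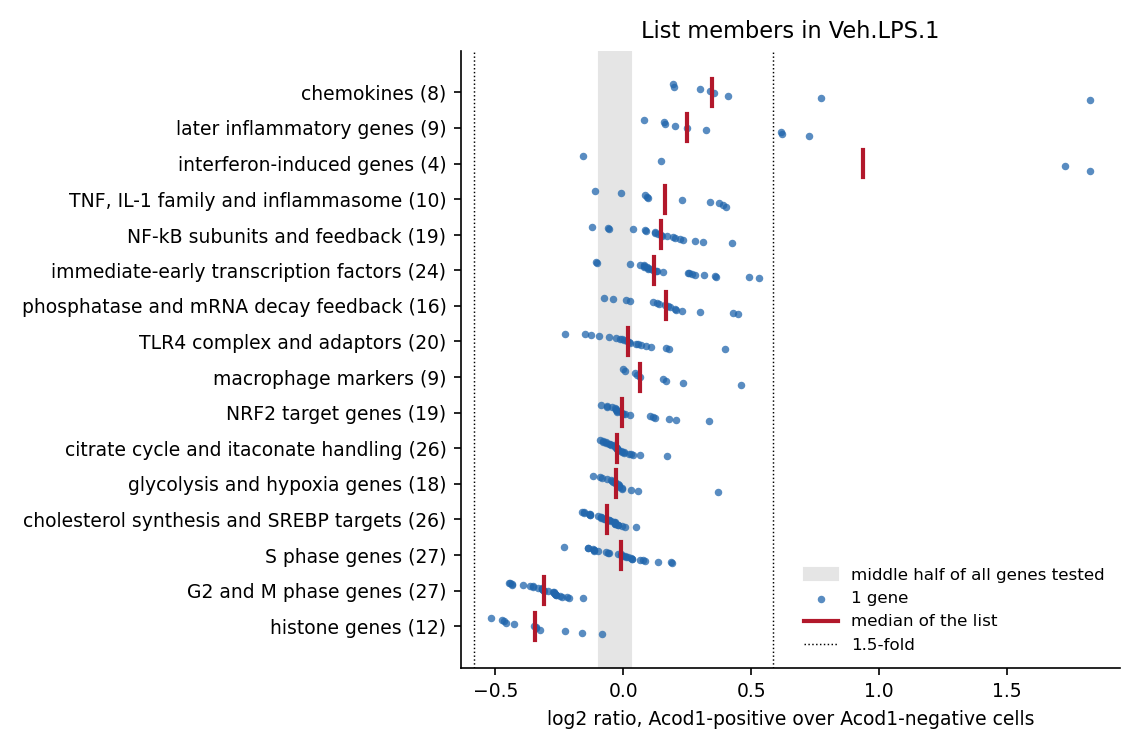
Each point is 1 gene of a list in Veh.LPS.1, placed by the log2 ratio of positive over negative cells (horizontal axis), with the number of genes tested beside each list and a red bar at the list's median. Chemokines lie to the right of the grey interquartile range of all 8437 genes, and the G2 and M phase genes and all histone genes but H2afz lie to its left, while citrate cycle genes fall inside or beside it.

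Of 25 interferon-induced genes, 4 passed the filter at 1 h, among them Cxcl10 and, through its share in positive cells, Oasl1. Both were past 1.5-fold, as 0.119% of all genes tested were. The transcription factor gene Irf9 had the lowest ratio, 0.898. Several genes of this and the other inflammatory lists lay below the filter and were named after their values were seen. Ifit1, an antiviral RNA-binding protein, had 94 UMIs in positive and 12 UMIs in negative cells, but 94.3% of its UMIs lay in 10 of 3073 cells. Ccl5, a later T cell chemokine, had 293 and 123 UMIs, with 249 of the 416 UMIs in cells of 10 or more Acod1 UMIs. Il1b, the precursor of IL-1 beta, had 386 and 308 UMIs (ratio 2.67, 2.29 to 3.11) and Il1a had 193 and 125 UMIs (3.29, 2.62 to 4.16). The 10 highest cells of each gene held 36.0% of the Il1b and 30.5% of the Il1a UMIs. Cells with 1 Acod1 UMI had 7.18 CPM of Il1b, against 7.36 CPM in cells with 0. Lcn2, an iron-sequestering protein, was lower in positive cells, with 128 and 434 UMIs (ratio 0.629, 0.512 to 0.768). It was found in only 3.57% of positive and 3.92% of negative cells, and in DHA.LPS.1 its ratio was 1.66 (1.42 to 1.94). A UMI of Il1b was found in 6.32% of positive and 3.92% of negative cells. Interferon beta itself (Ifnb1) had 5 UMIs in 3 cells, and 2 of those cells held 10 or more Acod1 UMIs. In Veh.LPS.4, by comparison, Il1b had UMIs in 674 of 993 cells and Ifnb1 in 13 cells.

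The lists of metabolic genes around itaconate had medians near that of all genes tested. All 26 citrate cycle and itaconate-handling genes passed the filter. None was past the limits of 25% higher or 20% lower. Of all genes tested, 1.09% and 1.73% were past these limits, so few would be in a list of this size. The median log2 ratio of the list was -0.02, against -0.03 over all genes tested. Sdha, a subunit of the itaconate-sensitive succinate dehydrogenase, had 80.9 CPM in positive and 81.1 CPM in negative cells (ratio 0.998). Clybl, which degrades citramalyl-CoA in the pathway that removes itaconate, had 8.31 and 7.39 CPM (1.12, 0.925 to 1.36). NRF2 target genes had a median of 0.00, with the cystine transporter Slc7a11 highest at 1.26 (1.19 to 1.33) and the glutathione synthesis gene Gclm lowest at 0.940. Hmox1, heme oxygenase, had a ratio of 1.15. Glycolysis and hypoxia genes had a median of -0.03, with the lipid droplet gene Hilpda apart from the rest at 1.29 and Bnip3 lowest at 0.922. Cholesterol synthesis genes had a median of -0.06, with 24 of 26 below 1, where 64.7% of all genes tested were, and Insig1, which restrains SREBP processing, highest at 1.04.

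Kctd12, a neighbour of Acod1 on chromosome 14 that was below the filter and was named after its value was seen, had 113 UMIs in positive and 103 UMIs in negative cells (ratio 2.34, 1.78 to 3.09), and lies 64375 bases from Acod1.

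Positive cells held less RNA of mitosis genes. All 27 G2 and M phase genes had a ratio below 1, where 64.7% of all genes tested did, and 9 of them were lower by more than 20%, as 1.73% of all genes were. Their median log2 ratio was -0.31. The mitotic kinase gene Plk1 had 31.8 CPM in positive and 43.3 CPM in negative cells (ratio 0.734, 0.669 to 0.804), the ubiquitin-conjugating enzyme gene Ube2c had 200 and 271 CPM (0.741), and Cks2 was nearest to 1 at 0.896. The proliferation marker Mki67 had 396 and 470 CPM (0.842). All 12 histone genes of the list were also below 1, 9 by more than 20%, with a median of -0.34 and Hist1h3c lowest at 0.699. Off the list, Hist2h2bb was lower (0.695) and Hist1h2bc, named after its value was seen, was higher, at 1.35 (1.18 to 1.54). Histone genes have near-identical copies, so single members are uncertain. DNA replication genes of S phase did not follow. Of 27, 12 were above 1, the median was -0.01, and the range ran from Tyms at 0.851 to Ung at 1.14.

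The mitosis genes were then summed in each cell. In positive cells the median sum over the G2 and M phase list was 35 UMIs, against 59 UMIs in negative cells, while the highest sums were 264 and 270 UMIs. With all cells split into 5 equal groups by this sum, 34.3%, 35.9%, 37.0%, 28.6% and 23.8% were Acod1-positive, from the lowest to the highest. Among cells below the median of the summed S and G2/M lists, 36.2% were positive and the median log2 ratio of the G2 and M phase list was 0.12. Among cells above it, 27.6% were positive and the median was -0.13. The direction of the list thus turned among cells with fewer cell cycle UMIs, where the split itself used the genes of the list. In those same groups the chemokine median was 0.23 and 0.42, both above 0.

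Lyz2 (ENSMUSG00000069516), the macrophage lysozyme, had the highest ratio of the macrophage markers. Every cell of both classes held it, with 2522 CPM in positive and 1836 CPM in negative cells, a ratio of 1.37 (1.36 to 1.39). The other 8 macrophage markers ranged from the lineage factor Spi1, with 207 and 208 CPM (0.999), to Adgre1, which encodes the F4/80 antigen, at 1.18 (1.08 to 1.28). Split into 5 equal groups by Lyz2, the cells were Acod1-positive in 21.6% of the lowest and 44.1% of the highest group. The share went from 16.7% to 50.8% over groups ordered by the summed NF-kB list, from 17.9% to 42.3% by the summed chemokines and from 19.0% to 43.3% by Tnf. Over groups ordered by the summed citrate cycle list it went from 36.7% to 27.9%, and by the S phase list from 34.8% to 31.1%. No value of these measures separated the classes, since each of the 5 groups held both.

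Some levels also differed between cells with few and with many Acod1 UMIs. Lyz2 had 1836 CPM in cells with 0 Acod1 UMIs, 2038 with 1, 2329 with 2, 2584 with 3 or 4, 2931 with 5 to 9 and 4769 CPM with 10 or more. The summed NF-kB list had 3661, 3973, 4170, 4472, 4434 and 4722 CPM over the same groups, and the summed G2 and M phase list had 3825, 3651, 3060, 2962, 2453 and 2243 CPM. The step from 0 to 1 UMI, at the limit between the classes, was thus part of a longer series in these lists. Csf3 went from 78.6 CPM at 0 and 104 CPM at 1 UMI to 190 CPM at 10 or more, while immediate-early factors levelled off after 8840 CPM at 0 and 9781 CPM at 3 or 4 UMIs. Other genes were less regular. Ptgs2 had 30.3, 46.9, 36.2, 31.0, 64.5 and 69.5 CPM over the groups. Cxcl10 rose with a dip at 2 UMIs, with 16.2, 36.7, 25.3, 59.9, 61.6 and 261 CPM. Cxcl2 levelled off as the immediate-early factors did, with 7256, 8102, 8278, 8668, 8332 and 8364 CPM. The citrate cycle list had 2741 CPM at 0 and 2441 CPM at 10 or more.

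**Figure D4:**
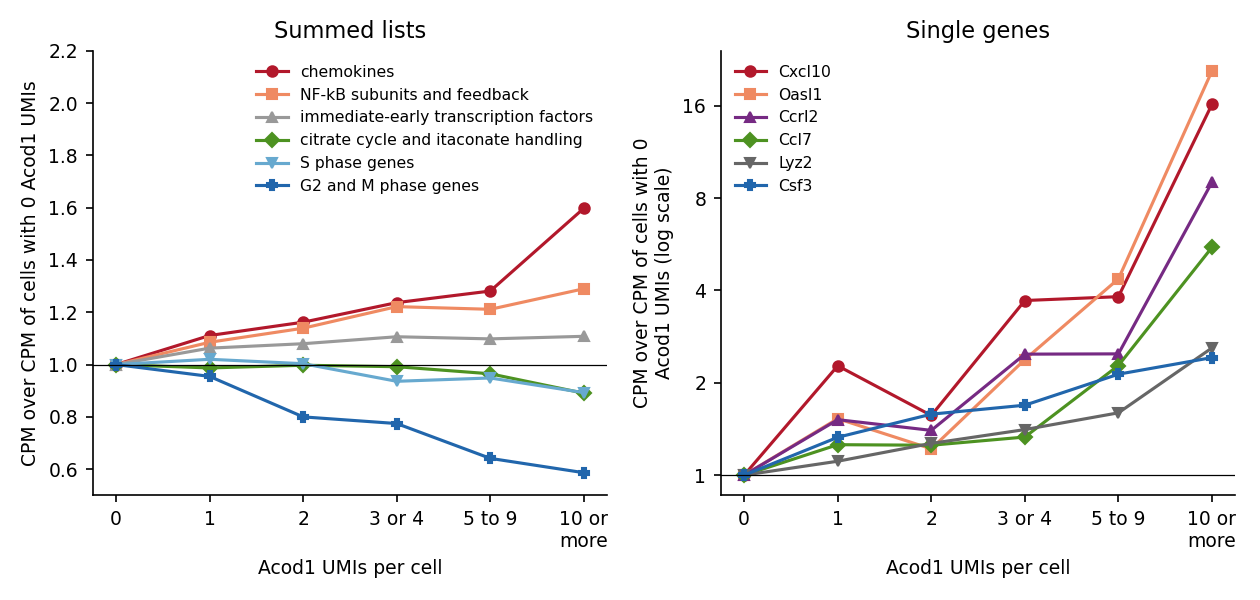
Lines give the level in Veh.LPS.1 cells grouped by Acod1 UMIs per cell (horizontal axis), divided by the level in cells with 0 Acod1 UMIs, for summed lists on a linear axis and for single genes on a log axis. The groups hold 2092, 376, 178, 192, 176 and 59 cells, and the interferon-linked genes Cxcl10 and Oasl1 climb most in the last group.

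The 59 cells with 10 or more Acod1 UMIs had the highest levels of several interferon-linked genes among the groups. Cxcl10 had 261 CPM in them, against 61.6 CPM in cells with 5 to 9 Acod1 UMIs, and Oasl1 had 177 against 37.2 CPM. Ccl5 had 211 CPM against 2.84 CPM, and Ifit1 had 72.0 CPM against 1.42 CPM. Some genes outside the interferon list were also highest there. Ccl7 had 573 against 236 CPM, Ccrl2 had 81.4 against 22.4 CPM and Slpi had 447 against 237 CPM. Il1a was not highest there, with 17.8 against 19.6 CPM. Among the 59, Cxcl10 and Oasl1 were each found in 24 cells, while fewer cells held Ccl5 (11 cells) and Ifit1 (5 cells). A cell with 27 Acod1 UMIs held 74 Cxcl10, 51 Oasl1, 42 Ccl5 and 39 Ifit1 UMIs, and a cell with 12 Acod1 UMIs held 40 Ccl5 UMIs and none of the other 3 genes. The converse also occurred, in a cell with 73 Cxcl10 and 41 Oasl1 UMIs but no Acod1 UMI. In libraries without LPS few cells were Acod1-positive, and these genes were found in a larger share of them, with wide intervals. Cxcl10 was found in 6 of 20 Acod1-positive Con cells (30.0%) against 2.94% of negative ones, and Oasl1 in 55.0% against 4.74%. Of the 301 Cxcl10 UMIs in Con, 66 lay in 2 cells with 10 or more Acod1 UMIs. In Veh.LPS.0, Cxcl10 was found in 15.7% of 51 positive cells (interval 7.02 to 28.6) and 6.95% of negative cells (5.98 to 8.04), and these intervals overlap. Ccl5 was found there in 1 positive cell. In DHA.LPS.0, Ccl5 was found in 10 of 14 positive cells (71.4%, 41.9 to 91.6) and 3.22% of negative cells. The median depth of the 59 cells before thinning was 29401 UMIs and their median mitochondrial share 7.23%.

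The same contrast was read in DHA.LPS.1, a library that the rule did not use, with 187 positive and 608 negative cells. Of 8423 genes tested there, 51 (0.605%) were more than 1.5-fold higher in positive cells and 169 (2.01%) more than 1.5-fold lower. Veh.LPS.1 had 981 positive and 2092 negative cells, so ratios in DHA.LPS.1 carry more counting error. Calls were by size alone, so the counts of called genes in the 2 libraries are not comparable. Of the 10 genes higher in Veh.LPS.1, 6 were past 1.5-fold in DHA.LPS.1 too. A ratio above 1 was found for 9 of them, where 60.9% of all genes tested in DHA.LPS.1 were below 1. The 10 include Oasl1 and Slfn5, which passed the filter in Veh.LPS.1 through the positive class. Cxcl10 had 166 CPM in positive and 22.4 CPM in negative cells of DHA.LPS.1, a ratio of 7.44 (6.44 to 8.61), and Oasl1 had 152 and 33.3 CPM (4.57, 4.01 to 5.20). Ccrl2 had a ratio of 2.27 (1.73 to 2.96), Clec4n 2.03 (1.69 to 2.44), Ptgs2 1.97 (1.53 to 2.52), Ccl7 1.95 (1.84 to 2.07) and Slpi 1.90 (1.76 to 2.06). Csf3 was at 1.48 (1.34 to 1.62), Lyz1 at 1.39 and Slfn5 at 1.19 (0.8999 to 1.56). Irf1 had a ratio of 0.949 (0.741 to 1.21). Neither gene called lower in Veh.LPS.1 was past 1.5-fold in DHA.LPS.1, with Oip5 at 0.710 (0.408 to 1.18) and Sh2b1 at 0.871 (0.542 to 1.36). Of the next lowest genes, Hist2h2bb (0.786) and Lrrc20 (0.807) were below 1 there. Tdp1 (1.13), Poc1a (1.13), Fam118a (1.16) and Mapk7 (1.02) were above 1.

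**Figure D5:**
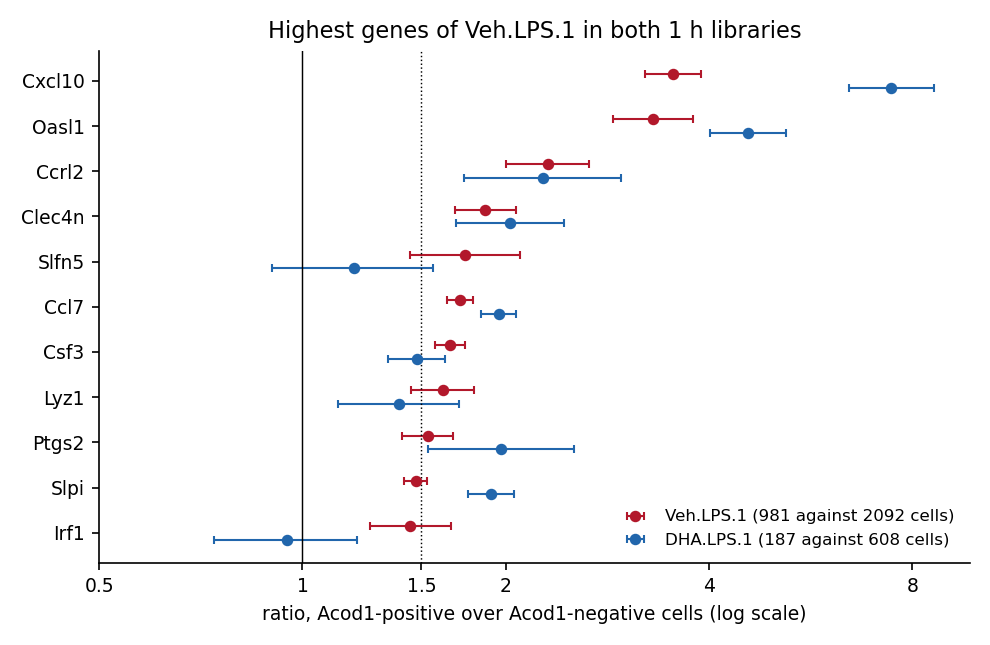
Points give the ratio of positive over negative cells (log axis) for 11 of the 12 genes with the highest ratio in Veh.LPS.1, in that library and in DHA.LPS.1, with exact binomial 95% intervals that cover counting error only. The dotted line marks 1.5-fold, and of the genes drawn Irf1 has a ratio below 1 in DHA.LPS.1.

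The lists of DHA.LPS.1 had medians of 0.45 for chemokines, 0.30 for later inflammatory genes, 0.23 for the TNF and IL-1 list and 0.13 for NF-kB subunits and feedback. At the lower limits, 4.21% of the genes tested were more than 25% higher and 10.8% more than 20% lower. Among the lists, 6 of 8 chemokines and 7 of 11 interferon-induced genes were more than 25% higher. The detection filter counted both classes together, so it could admit genes through the positive class, where they are high. How many of the 11 passed in that way was not tested, so the 7 of 11 is a description only. The G2 and M phase list had a median of -0.32, with 14 of 27 genes more than 20% lower, and the histone list had -0.14. The S phase and cholesterol synthesis lists, near 0 in Veh.LPS.1, had medians of -0.22 and -0.28 in DHA.LPS.1. Whether the ratios differed between the 2 libraries was not tested, since each condition had 1 library. At 4 h only 32 Veh cells and 16 DHA cells were Acod1-negative, too few for a contrast across genes.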

How the data were processed

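FLMs were profiled with the 10x Chromium 3' kit (v3 chemistry). The authors deposited, for each of 7 libraries, raw UMI counts per gene and barcode, without normalization or their later filter on cells. The submitters' processing notes name Cell Ranger 3.1.0 and mm10, while the paper's methods name another Cell Ranger version. Counts were filtered, thinned (seed 11) and summed per class in Python 3.11.15 with numpy 2.4.6, scipy 1.17.1 and pandas 2.3.3. Genes detected in 10% or more of both classes together were compared by the ratio of summed counts. Genes were called by size alone (1.5-fold), with no p-value, since cells of 1 library are not replicates. Thinned counts give the depth of each class as 20000 UMIs per cell. No doublet caller was run. An alternative left out the deepest 5% of cells. The 25 lists held 401 genes, of which 400 were found under 1 row each (Aldoa was not). Named were the 12 highest and 8 lowest ratios, list members past 1.5-fold and the highest and lowest member of each list, except some genes that are not reported here. The members and lists were chosen with earlier results of these data known. The contrast was tested on simulated data. Simulated cells of a class were drawn from the same gene shares, so this test did not cover the clustering of RNA in few cells.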

Additional observations from a re-analysis of the deposited data

Results flagged for a closer look

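Barcodes outside the limits were not part of any contrast. In Veh.LPS.1 the 2632 removed barcodes held 1063 Acod1 UMIs, or 52.7 CPM, above the 3.09 CPM of the 1980 removed barcodes of Veh.LPS.0, which received no LPS. Kept cells of Veh.LPS.1 had 56.7 CPM before thinning.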

How the results depend on the processing

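The thinning depth and the limit of 1 UMI set the positive share, and the 12 genes called rest on 104 to 3479 UMIs in positive cells, so counts past 1.5-fold move with the cells chosen. Intervals do not cover the clustering of RNA in few cells. No paired analysis was possible because each condition had 1 library and no test was run, and no replicate could be left out. The alternative without cells of 10 or more Acod1 UMIs was chosen after seeing the data. For the 52 named genes, 488 values under 12 alternatives stayed within the counting interval, 136 left it, and none of the genes past 1.5-fold changed sign.

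The positive share was 36.4% without thinning, 23.1% with cells over 10000 UMIs thinned to 10000, 19.7% with at least 2 Acod1 UMIs, 36.2% below and 27.6% above the median of cell cycle UMIs. Against 10 genes higher and 2 lower, there were 21 and 40 with at least 2 Acod1 UMIs, 21 and 15 above the median depth, 29 and 14 with genes found in 5% or more of the cells, 2 and 0 with 25%, 92 and 146 at 25% higher or 20% lower, 3 and 0 past 2-fold, and 6 and 0 without cells of 10 or more Acod1 UMIs. The lower genes alone numbered 1 with another thinning seed, 1 without thinning, 4 at 10000 UMIs, 9 below and 16 above the median of cell cycle UMIs, and 26 below the median depth. The cause was not tested, except that a looser limit or filter admits more genes by construction.

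The median log2 ratio of chemokines was 0.32 with another seed, 0.32 without thinning, 0.32 at 10000 UMIs, 0.45 with at least 2 Acod1 UMIs, 0.23 below and 0.42 above the median of cell cycle UMIs, 0.27 below and 0.39 above the median depth, 0.30 without cells of 10 or more Acod1 UMIs, 0.38 when centred and 0.32 with the 25% filter. That of the G2 and M phase list was -0.18 without thinning, -0.47 with at least 2 Acod1 UMIs, and 0.12 below and -0.13 above the median of cell cycle UMIs. That of the histone list was -0.22, -0.57, -0.042 and -0.10 in the same order, and -0.18 below the median depth. Later inflammatory genes had 0.33 above the median of cell cycle UMIs and 0.32 with the 5% filter, S phase genes 0.11 above the median of cell cycle UMIs, the TNF and IL-1 list 0.27 above the median depth, and macrophage markers 0.11 at 10000 UMIs and 0.13 with at least 2 Acod1 UMIs. The medians of the NF-kB list (0.14 to 0.20) and of the immediate-early list (0.11 to 0.17) stayed within the typical counting interval of their members in all 14 alternatives.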
